A study of Mus musculus with 18 samples.

Results

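Regulatory T cells (Tregs) were set against CD8+ T cells after both had been kept with small extracellular vesicles from leukemic spleens (LME-sEVs). Members were chosen by sample title alone, as the 3 Treg arrays and the 3 CD8+ T-cell arrays labelled with vesicles of TCL1 origin, which are 6 of the 18 arrays of the series. All cells were splenic and came from mice of the strain Foxp3 YFP/cre. Yellow fluorescent protein marks the cells that express Foxp3 in this strain, so that Tregs could be sorted as YFP+ cells. The sorted cells spent 24 h in culture with IL2 at 10 ng/ml and, per the labels, vesicles at 50 ug/ml, and their RNA was read on Clariom S mouse arrays. The vesicles came from the spleen microenvironment of TCL1 mice, a B-cell leukemia model driven by a transgene, and the 6 arrays used for contrast came from Tregs and CD8+ T cells kept with vesicles of healthy control spleens (HCME-sEVs). No array of cells without vesicles was used, so all groups share IL2 and a vesicle treatment. Mice were young adults by the general statement of the methods. No source used here states that the arrays of a group came from separate animals, so each p-value rests on the spread of these arrays alone, which may be a technical one.

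Tregs restrain other lymphocytes. They express the transcription factor Foxp3, take up IL2 through its high-affinity receptor, and carry costimulatory receptors of the TNF receptor family and inhibitory receptors such as CTLA-4 at rest. CD8+ T cells recognise peptides on MHC class I with the help of the CD8 co-receptor and kill through granules that hold perforin and granzymes, and part of them carry receptors first known from natural killer (NK) cells.

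Values are log2 probe set signals after quantile normalization of the 6 arrays, which gives each array the same distribution and leaves the order of genes on an array as it was. A probe set was called with limma's moderated test at a Benjamini-Hochberg adjusted p below 0.05 and an absolute log2 difference above 1. All differences are Treg minus CD8+. Of 22206 probe sets 2385 were called (10.7%), 1165 higher in Tregs (5.25%) and 1220 lower (5.49%), and 7256 had an unadjusted p below 0.05. The 2 groups did not overlap for 39.5% of all probe sets and for all 2385 called ones, so groups that lie apart add nothing to a call. Scaling set the balance of directions. On the deposited values as they stood 503 probe sets were higher and 4304 lower, and with arrays centred on their median above background 3278 were higher and 973 lower. The median difference of all probe sets was 0.03 after quantile normalization, -0.51 on the deposited values and 0.43 after centring. Where the dimmer group lay below background on all 3 arrays the fold change is given as a lower limit against that background, which was set from 1429 olfactory, vomeronasal and trace amine receptor probe sets. This was so for 277 of the higher and 381 of the lower calls, and 523 calls lay below background in both groups.

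The sort was visible in the co-receptors. Cd8b1, the beta chain of CD8, was at 10.41, 11.42 and 10.27 on the Treg arrays, against 17.34, 17.28 and 17.34 on the CD8+ arrays, a difference of -6.62 ± 0.32 (SE, adjusted p = 0.000296). Cd8a, the alpha chain, was at 7.14, 8.38 and 7.34 in Tregs and at 13.13, 14.00 and 13.26 in CD8+ T cells. Both genes kept the groups far apart, though Cd8b1 stayed above background on every Treg array, at the 87.8th percentile of all probe sets against the 99.7th in CD8+ T cells. Cd4 was higher in Tregs, at 11.52, 10.35 and 10.41 against 8.47, 7.94 and 8.46 (2.47 ± 0.36, adjusted p = 0.00847), and Foxp3 was not analysed here. In these bulk samples fewer cells of a type and less RNA per cell cannot be told apart.

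Markers of other cells were uneven. The 7 plasma-cell genes had the highest sum, at 14.07, 14.89 and 13.72 in Tregs and 13.43, 12.97 and 12.18 in CD8+ T cells, with a median difference of 1.38 and 2 genes called higher in Tregs, Irf4 and Prdm1. Xbp1, a secretory factor that T cells also express, carried most of this sum, at 14.01, 14.72 and 13.65 in Tregs and 13.37, 12.88 and 12.01 in CD8+ T cells (adjusted p = 0.0744). Jchain, the joining chain of secreted antibody, was at 11.42 in Treg replicate 2 and at 5.84 and 5.68 in the other Treg arrays, against 5.71, 5.93 and 6.24 in CD8+ T cells, and so stood out in 1 array. The summed signal of 9 myeloid genes was 12.16 on the array of Treg replicate 2, 10.24 and 10.45 on the other Treg arrays and 9.85 to 10.10 on the CD8+ arrays, on a log2 scale. The 10 B-cell genes summed to between 10.83 and 11.64 in Tregs, with replicate 2 the highest, and to between 10.19 and 10.36 in CD8+ T cells. Of the B-cell genes 1 was called higher in Tregs (Bank1) and 1 lower (Cd79b), and Ms4a1, Cd22, Fcer2a and Cr2 lay below background on all 6 arrays. The 9 neutrophil genes summed to 9.79 to 11.32 in Tregs and to 9.57 to 9.86 in CD8+ T cells, and 11 dendritic-cell genes to 11.23 to 12.32 and to 10.84 to 11.16. Of these lists Retnlg and H2-Eb1 were called higher in Tregs, Retnlg with both groups below background. Both calls were lost without Treg replicate 1 or 3 or any one CD8+ array and on the deposited values, and that of H2-Eb1 also after cyclic loess, while Lyz2, Itgam, Csf1r, Cd14, Itgax, Flt3 and Clec9a lay below background on all 6 arrays. Without Treg replicate 2 the calls numbered 1731. The part of such cells in the differences was not tested.

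Promoter windows with matches to the motifs below are shown for Tnfrsf9, Gzmb and Nkg7, genes described further on. They are the 250 bases before a gene's start from RefSeq on GRCm38.p6, read 5′ to 3′ on the gene's strand. Capitals mark every match, on either strand, to the STAT motif TTCNNNGAA, the AP-1 motif TGANTCA or the RUNX motif TGTGGT, and no matches overlap one another.
Tnfrsf9 (chr4:150927749-150927998, + strand): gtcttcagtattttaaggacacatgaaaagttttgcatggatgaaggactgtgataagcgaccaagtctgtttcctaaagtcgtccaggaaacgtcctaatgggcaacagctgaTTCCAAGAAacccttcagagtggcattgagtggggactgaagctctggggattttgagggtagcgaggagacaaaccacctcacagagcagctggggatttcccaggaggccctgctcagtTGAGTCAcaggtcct
Gzmb (chr14:56262335-56262584, - strand): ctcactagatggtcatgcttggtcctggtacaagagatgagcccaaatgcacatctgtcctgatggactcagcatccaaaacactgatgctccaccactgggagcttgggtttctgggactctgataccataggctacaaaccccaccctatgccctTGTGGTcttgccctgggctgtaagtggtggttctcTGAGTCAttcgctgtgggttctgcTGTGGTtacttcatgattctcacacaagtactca
Nkg7 (chr7:43436888-43437137, + strand): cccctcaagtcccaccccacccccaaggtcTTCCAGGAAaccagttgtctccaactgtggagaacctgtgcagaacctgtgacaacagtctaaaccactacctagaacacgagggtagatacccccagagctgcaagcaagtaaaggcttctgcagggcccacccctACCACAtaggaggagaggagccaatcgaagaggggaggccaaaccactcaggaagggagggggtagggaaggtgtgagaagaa
This Tnfrsf9 window, 1 of 2 listed for the gene, held 1 STAT and 1 AP-1 match, and the other window held none of the 3 motifs. The Gzmb window held 1 AP-1 and 2 RUNX matches, and the Nkg7 window 1 STAT and 1 RUNX match. Windows without any match were those of Tnfrsf4, Ctla4, Pdcd1, Cish, Gzmk, Eomes and Il2ra, among others. Those of Tigit and Tnfrsf18 held 1 match each. Of 32851 such windows 7.02% held the STAT motif, 6.75% the AP-1 motif and 14% the RUNX motif. The shares were 6.55%, 5.74% and 12.1% for genes called higher in Tregs, and 6.56%, 4.75% and 14% for genes called lower. A match is a description of these letters and not a site of binding. Windows were found for 11 of the 20 genes with the largest differences.

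Some costimulatory receptors of the TNF receptor family were called higher in Tregs. Of 18 measured members 6 were higher, 0 lower and 12 not called, beside 5.25% higher and 5.49% lower of all probe sets. Their median difference was 0.74 against 0.03 for all probe sets. On the deposited values 4 were higher and 2 lower (Tnfrsf14 and Tnfrsf11a). Tnfrsf4, which encodes OX40, a receptor that sustains activated T cells, reached 16.67, 16.46 and 16.57 in Tregs, against 8.88, 9.56 and 8.84 in CD8+ T cells (7.47 ± 0.24, adjusted p = 0.000127). Tnfrsf9, which encodes 4-1BB, was at 14.25, 13.10 and 13.31 in Tregs and at 6.47, 6.69 and 6.42 in CD8+ T cells, where it lay below background. Tnfrsf9 was therefore at least 54.9-fold higher in Tregs (adjusted p = 0.000296). Tnfrsf18, which encodes GITR, was at 15.31, 15.03 and 14.41 against 11.11, 11.03 and 10.19 (4.14 ± 0.34, adjusted p = 0.00143). None of these 3 genes had overlapping groups, as held for every called probe set. Tnfrsf13b, a receptor best known from B cells, was at least 2.13-fold higher, and Tnfrsf25, the death receptor DR3, differed by 1.87 ± 0.28. Tnfrsf1b, the TNF receptor TNFR2, was called with both groups below background. Other members did not pass. Fas was at 7.19, 8.65 and 8.67 in Tregs and 6.32, 7.56 and 6.17 in CD8+ T cells with overlapping groups (adjusted p = 0.11), and Tnfrsf14, which encodes HVEM, differed by -1.04 ± 0.42 (adjusted p = 0.138). Among 14 TNF-family ligands Tnf was higher in Tregs, at 7.89, 9.91 and 8.27 against 5.72, 6.14 and 6.50, and Ltb, the membrane anchor of lymphotoxin, was lower, at 11.62, 11.10 and 10.30 against 13.58, 14.78 and 12.76. The Tnf call (adjusted p = 0.0268) was lost without Treg replicate 3 or any one CD8+ array, and the Ltb call (adjusted p = 0.027) without Treg replicate 2 or 3 or CD8+ replicate 1 or 2, with adjusted p from 0.0514 to 0.0837.

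Of 22 genes of the CD28 and SLAM families and related coreceptors, 7 were higher and 3 lower in Tregs, and 11 and 3 after centring. Among all probe sets 5.25% were higher and 5.49% lower after quantile normalization. Icos, the inducible costimulator, was at 15.69, 15.71 and 16.49 in Tregs, against 11.71, 10.84 and 11.76 in CD8+ T cells (4.53 ± 0.34, adjusted p = 0.00109). Cd81, a tetraspanin that associates with coreceptors, was at 13.55, 13.74 and 13.82 against 7.77, 8.95 and 7.99. The lower members included Cd226 (DNAM-1), which promotes killing, at 13.39, 12.92 and 12.54 in Tregs and 15.24, 15.20 and 14.88 in CD8+ T cells (-2.16 ± 0.26, adjusted p = 0.0049), and Cd7, at 7.39, 9.02 and 10.24 against 15.12, 15.31 and 14.68. Slamf1 and Cd6 were higher by 3.98 ± 0.37 and 2.73 ± 0.23.

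Inhibitory receptors and their partners differed in both directions. Of 27 measured members 8 were higher and 3 lower, beside 5.25% higher and 5.49% lower of all probe sets, with a median of 0.37. On the deposited values 8 were higher and 5 lower, with a median of -0.34. Without Treg replicate 2 the lower members numbered 1. Ctla4, which competes with CD28 for its ligands, was at 12.53, 12.58 and 12.47 in Tregs and at 4.74, 5.04 and 5.89 in CD8+ T cells, at least 27.0-fold higher in Tregs (adjusted p = 0.00024). Pdcd1, which encodes PD-1, was at 11.46, 11.54 and 10.21 against 6.02, 5.95 and 5.88, at least 9.82-fold higher (adjusted p = 0.000924). Tigit, which binds the same ligands as Cd226, was at 9.88, 9.61 and 9.55 against 5.82, 5.31 and 5.52, at least 3.75-fold higher (adjusted p = 0.000296). The CD8+ arrays were below background for all 3 genes. Cd200r1, an inhibitory receptor for CD200, was at least 11.4-fold higher. The pair of ectoenzymes that make adenosine from ATP was also higher in Tregs, Entpd1 (CD39) at least 4.03-fold and Nt5e (CD73) by 1.88 ± 0.26. Lgals1, which encodes galectin-1, differed by 3.35 ± 0.16. Klrg1 was called with both groups below background.

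**Figure D1:**
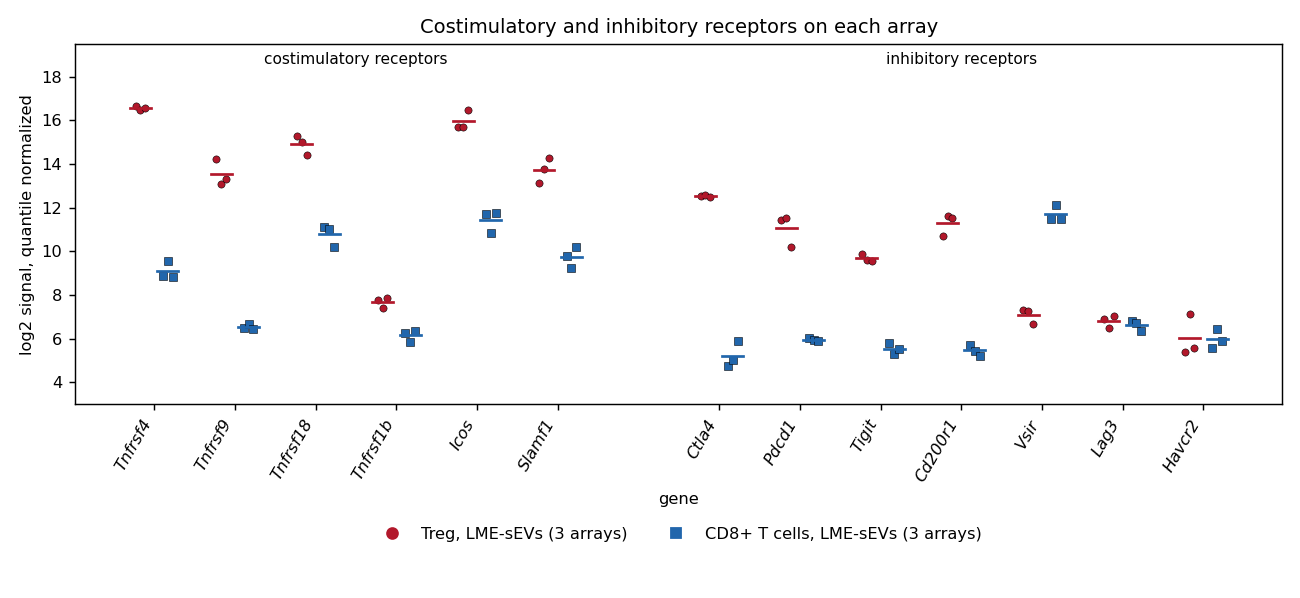
Log2 signal of 13 costimulatory and inhibitory receptor genes on each array (y axis, quantile normalized), Tregs as red circles left of CD8+ T cells as blue squares, 3 arrays each, with the group mean as a bar. Tregs lie above CD8+ T cells with no overlap for Tnfrsf4, Tnfrsf9, Ctla4 and Pdcd1 among others, Vsir runs the other way, and Lag3 and Havcr2 overlap.

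Vsir, which encodes the inhibitory receptor VISTA, was lower in Tregs. It was below background there, at 7.32, 7.27 and 6.66, against 11.49, 12.15 and 11.49 in CD8+ T cells, and so at least 13.5-fold lower (adjusted p = 0.000573). Cd101 and Sla2, which dampen T-cell receptor signals, were lower too (adjusted p = 0.016 and 0.0206). Cd101 lost its call without Treg replicate 2 or CD8+ replicate 1 or 3, with adjusted p from 0.0509 to 0.0572. Sla2 lost its call without Treg replicate 1 or 2 or CD8+ replicate 3, with adjusted p from 0.0555 to 0.0621. Lag3, Havcr2 (TIM-3) and Cd160 lay below background on all 6 arrays, so no difference in them could be read. Cd274, which encodes the ligand PD-L1, was at 9.59, 8.06 and 7.59 in Tregs and 7.13, 7.56 and 6.62 in CD8+ T cells without a call (adjusted p = 0.148), and Btla overlapped between groups.

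Activation genes were higher in Tregs where they were called at all. Of 40 measured members 10 were higher and 0 lower, beside 5.25% higher and 5.49% lower of all probe sets, with a median of 0.74. On the deposited values 4 were higher and 2 lower. Cd44, an adhesion receptor of activated and memory cells, was at 10.34, 11.38 and 11.56 in Tregs, against 5.32, 7.93 and 7.11 in CD8+ T cells (4.31 ± 0.69, adjusted p = 0.0121). Jun, a subunit of AP-1, was at 9.93, 9.53 and 9.19 against 5.35, 6.21 and 5.85, at least 3.43-fold higher (adjusted p = 0.00127). Dusp5, a phosphatase induced by ERK, differed by 1.92 ± 0.24. Irf4, a factor induced by T-cell receptor signals, was at 7.26, 7.99 and 7.36 against 5.45, 5.74 and 5.01. Its difference was called (adjusted p = 0.00661) with both group means below background. Cd44, Jun, Dusp5 and Irf4 kept the groups apart on every array, as did every called probe set. Several calls were close to the threshold. Batf lost its call without any one array, Il2ra without any but Treg replicate 1, Rel without any but Treg replicate 2, Egr2 without Treg replicate 2 or CD8+ replicate 1 or 2, and Cd83 without Treg replicate 1 or CD8+ replicate 1 or 2, and leaving out 1 array gave 5 to 8 higher members, 5 without CD8+ replicate 1 and 6 without CD8+ replicate 2. All 5 calls, and that of Bhlhe40, were also lost on the deposited values. Il2ra, the alpha chain of the IL2 receptor, was at 9.61, 8.06 and 8.33 in Tregs and below background in CD8+ T cells at 7.22, 7.07 and 6.78 (adjusted p = 0.0452). The early genes Fos, Egr1, Ier2 and Dusp2 lay below background on all 6 arrays. Cd69 was at 13.05, 12.24 and 14.17 in Tregs and 10.55, 12.34 and 11.24 in CD8+ T cells, with overlap and no call (adjusted p = 0.1), and Myc likewise overlapped (adjusted p = 0.242).

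Granule genes differed in both directions. Of 24 measured granule and killing genes 3 were higher in Tregs (Gzmb, Rab27a and Lamp1) and 4 lower, with a median of -0.13. Calls over all probe sets were 5.25% higher and 5.49% lower. On the deposited values 2 were higher and 9 lower with a median of -0.77, and after centring 5 were higher and 4 lower with a median of 0.17. Gzmb, the protease that starts apoptosis in target cells, was at 11.33, 11.05 and 11.38 in Tregs, against 7.80, 8.13 and 9.97 in CD8+ T cells (2.62 ± 0.55, adjusted p = 0.0274). The Treg arrays all lay above the CD8+ arrays, among which replicate 3 was the highest. Without CD8+ replicate 3 the difference was 3.28 and stayed called, and without any other single array it was 2.21 to 2.71 with adjusted p from 0.068 to 0.0818. Rab27a, which docks granules and vesicles at the membrane, was at 9.39, 8.79 and 8.71 against 7.14, 6.88 and 6.58, at least 2.28-fold higher (adjusted p = 0.00528), and the granule membrane protein gene Lamp1 differed by 1.5 ± 0.24. Lamp1 fell short of the fold threshold on the deposited values (0.78).

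The lower granule genes were Nkg7, Gzmk, Ctsw and Cst7. Nkg7, a granule protein needed for efficient degranulation, was at 7.66, 9.15 and 7.83 in Tregs and at 13.01, 12.97 and 13.09 in CD8+ T cells (-4.81 ± 0.40, adjusted p = 0.00142). Gzmk, a granzyme of memory-type CD8+ T cells, was at 7.71, 8.41 and 7.05 against 11.59, 11.88 and 12.16 (-4.15 ± 0.36, adjusted p = 0.00181). Ctsw, a cathepsin of killer cells, differed by -2.35 ± 0.33. Cst7, an inhibitor of cathepsins, differed by -1.20 ± 0.24 and lost its call without any one array but CD8+ replicate 2, with adjusted p from 0.0511 to 0.0731. Prf1, which encodes perforin, lay below background on all 6 arrays. Gzma was at 7.04, 7.38 and 8.06 in Tregs and 8.04, 7.87 and 8.04 in CD8+ T cells with overlapping groups (adjusted p = 0.274).

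**Figure D2:**
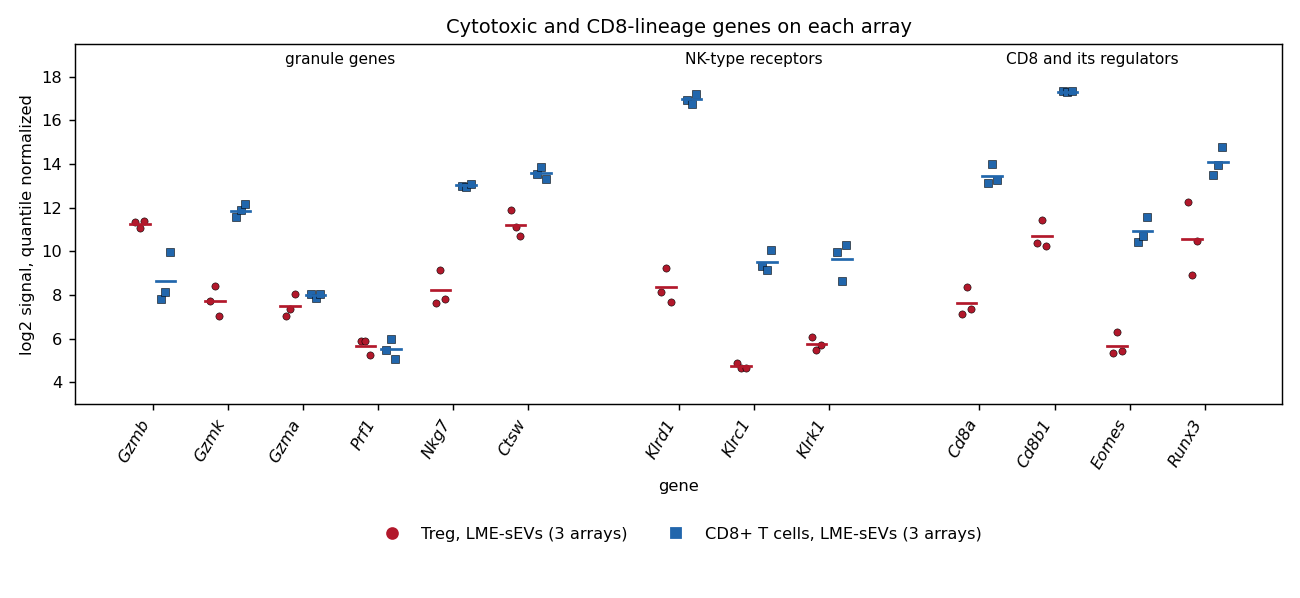
Log2 signal of 13 granule, NK-receptor and CD8-lineage genes on each array (y axis, quantile normalized), Tregs as red circles left of CD8+ T cells as blue squares, 3 arrays each, with the group mean as a bar. Gzmb is above in Tregs, Prf1 and Gzma overlap, and the other genes are above in CD8+ T cells, Cd8b1 and Klrd1 most of all.

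NK-type receptors and effector chemokines were mostly lower in Tregs where called. Of 28 measured members 15 were lower in Tregs and 1 higher (Klrg1, below background), with a median of -1.36. Of all probe sets 5.49% were lower. The lower members numbered 18 on the deposited values, 13 after centring and 11 or 12 without any one array. Klrd1, which encodes CD94, the partner of the NKG2 receptors, was at 8.15, 9.25 and 7.69 in Tregs and at 16.95, 16.77 and 17.23 in CD8+ T cells (-8.62 ± 0.40, adjusted p = 0.000296). Klrc1, which encodes the inhibitory NKG2A, was at 4.91, 4.68 and 4.68 against 9.31, 9.13 and 10.04, and Klrk1, which encodes the activating NKG2D, at 6.07, 5.50 and 5.72 against 9.98, 8.63 and 10.29. Both were below background in Tregs, at least 2.91-fold and 3.20-fold lower. Klra7 was at least 9.34-fold lower, though members of this gene family are similar in sequence and their probe sets may not tell them apart. Ccl5, a chemokine of effector cells, was at least 2.65-fold lower (adjusted p = 0.0179) and lost its call without Treg replicate 1 or 3, with adjusted p of 0.0555 and 0.0509. Of 7 NK-cell markers Eomes, Fcgr3 (at least 1.64-fold) and Klre1 (-1.47) were called lower in Tregs, Klre1 with the call lost without Treg replicate 1 or 3 or CD8+ replicate 1 or 3, and Ncr1, Klrb1c, Klri2 and Tyrobp were not called. The summed signal of the 7 was 9.24 to 9.60 in Tregs and 11.50 to 12.26 in CD8+ T cells.

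Of 14 genes of the CD4 and CD8 lineages 4 were higher in Tregs and 5 lower, beside 5.25% and 5.49% of all probe sets. The lower ones were Satb1, Ctsl, Runx3, Cd8a and Cd8b1, while Eomes was counted among the effector factors below. The higher lineage genes numbered 2 on the deposited values and 2 without Treg replicate 2, and the lower ones 3 without CD8+ replicate 1 or 2. Eomes, a driver of cytotoxic memory, was at 5.33, 6.31 and 5.42 in Tregs, below background, and at 10.45, 10.73 and 11.60 in CD8+ T cells, at least 7.85-fold lower in Tregs (adjusted p = 0.00108). Runx3, which fixes the CD8 lineage, was at 12.26, 8.93 and 10.50 against 13.48, 13.98 and 14.80 (-3.52 ± 0.82, adjusted p = 0.0371) and lost its call without any one array but Treg replicate 1. Treg arrays spread widely for this gene. Of 19 effector factors 10 were higher in Tregs and 2 lower, namely Eomes and Runx3, beside 5.25% and 5.49% of all probe sets. On the deposited values 5 were higher and 4 lower, and after centring 13 were higher and 3 lower. Without Treg replicate 2 or 3 or CD8+ replicate 3 the lower ones numbered 1. Nfil3 was at 12.03, 11.55 and 11.51 in Tregs and 7.45, 8.45 and 8.31 in CD8+ T cells (3.63 ± 0.31, adjusted p = 0.00173), and Stat3, which relays IL6 and IL10 signals, was at 12.44, 12.42 and 12.97 against 8.68, 10.02 and 9.52 (3.21 ± 0.37, adjusted p = 0.00424). Rora, a nuclear receptor, differed by 4.23 ± 0.19 on its brightest probe set and by 3.65 on another (limma adjusted p = 0.018). Its remaining probe set had a mean of 5.06, below background, and could not be read.

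Treg identity genes were mostly higher, as 22 of 31 measured members with 1 lower and a median of 3.14. All probe sets gave 5.25% higher and 5.49% lower. The list was made of known Treg genes and the cells were sorted as Tregs, so this describes the sort. Members such as Tnfrsf4, Ctla4, Icos and Il2ra were also counted in the lists above and are not further evidence. Lrrc32, which encodes GARP, the anchor of latent TGF-beta, was at 12.38, 13.15 and 12.72 in Tregs and 3.93, 4.08 and 3.83 in CD8+ T cells, at least 31.5-fold higher (adjusted p = 7.78e-05). Ikzf2, which encodes the factor Helios, was at 12.11, 11.10 and 12.15 against 7.06, 7.40 and 7.20, at least 16.1-fold higher. Tgfb1 itself was at 14.20, 14.19 and 13.67 against 10.31, 10.96 and 11.38 (3.14 ± 0.31). Rgs1, a brake on chemokine receptors, was at 15.86, 15.95 and 16.05 against 10.63, 9.63 and 10.30 (5.77 ± 0.27). Lrrc32, Ikzf2, Tgfb1 and Rgs1 kept the groups apart on all 6 arrays, as did every called probe set. Ikzf1, which encodes Ikaros, was the lower member, by -2.58 ± 0.38. Capg (adjusted p = 0.0202) lost its call without Treg replicate 2 or any one CD8+ array, with adjusted p from 0.0578 to 0.0651.

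IL2 signalling through STAT5 induces feedback genes. The list for this response also held receptor chains, signalling parts, survival genes and effector genes, and its differences were uneven. Cish, a STAT5-induced inhibitor of cytokine and T-cell receptor signals, was at 13.95, 14.22 and 14.07 in Tregs and at 4.62, 5.83 and 5.62 in CD8+ T cells, at least 79.2-fold higher in Tregs (adjusted p = 0.000169). Socs2, another inhibitor of this family, was at 10.90, 11.73 and 13.08 against 7.12, 7.93 and 8.92 (3.92 ± 0.66, adjusted p = 0.0143, and 0.05 without CD8+ replicate 2). The kinase gene Pim1 was higher by 1.52 ± 0.26. The kinase gene Pim2 was below background in Tregs and at least 2.10-fold lower there (adjusted p = 0.0486), at 5.92, 6.28 and 6.67 in Tregs against 8.34, 10.74 and 8.0 in CD8+ T cells. Pim1 lost its call without Treg replicate 2 or CD8+ replicate 1 or 3, and Pim2 without any one array but CD8+ replicate 2. Of 20 measured members of this set 6 were higher and 1 lower, beside 5.25% and 5.49% of all probe sets. Gzmb and Il2ra were among the 6 and were also counted in other lists. On the deposited values the counts were 3 and 2, and after centring 12 and 1. The higher members numbered 3 without Treg replicate 2 or 3 and 2 without CD8+ replicate 1 or 2.

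Of 26 measured genes of naive and quiescent T cells 15 were lower in Tregs, 0 higher and 11 not called, with a median of -1.62. Ccr7 (0.39), Id3 (0.34), Klf2 (0.02) and Foxo1 (-0.48) were among those not called. The shares of all probe sets were 5.49% lower and 5.25% higher. Il7r, the receptor for the survival cytokine IL7, was at 10.50, 12.21 and 11.57 in Tregs and 16.37, 16.27 and 16.33 in CD8+ T cells (-4.90 ± 0.42, adjusted p = 0.00163). Actn1, an actin crosslinker, was at 8.41, 7.33 and 7.55 against 12.96, 12.73 and 12.69 (-5.03 ± 0.30, adjusted p = 0.000573). Ly6c1 and Ly6c2, neighbours with near-identical sequence that the probe sets may not separate, differed by -4.98 ± 0.64 and -4.74 ± 0.43. The gut-homing receptor gene Ccr9 was at least 2.70-fold lower. The groups were apart for Il7r, Actn1, Ly6c1, Ly6c2 and Ccr9, as for every called probe set. Of 23 T-cell receptor complex and kinase genes 8 were lower and 1 higher, beside 5.49% and 5.25% of all probe sets. The counts were 11 and 0 on the deposited values, and 5 and 3 after centring. The adaptor gene Lat was lower, at 14.06, 13.90 and 13.10 in Tregs against 16.03, 16.12 and 15.71 in CD8+ T cells (-2.27 ± 0.29, adjusted p = 0.00584). The CD3 chain genes Cd3e and Cd3d were not called.

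Among the 20 genes with the largest differences that met the naming rule, those outside these families were Cpe, Tiam1 and Acvr1c on the Treg side and Atp8b4, Rnf32, Slc6a19, Pde3b, Dapl1 and Bcl9l on the CD8+ side. Cpe, which encodes a carboxypeptidase that processes peptide hormones, was at 14.32, 14.13 and 14.17 in Tregs and at 7.58, 6.83 and 7.62 in CD8+ T cells, at least 86.3-fold higher. Atp8b4, a lipid flippase gene, was at 4.18, 4.34 and 4.18 in Tregs and 13.79, 14.27 and 14.15 in CD8+ T cells, at least 69.2-fold lower. Pde3b, which encodes a phosphodiesterase, was at 9.67, 8.16 and 8.68 against 15.00, 14.96 and 14.75 (-6.07 ± 0.38, adjusted p = 0.000619). These 3 genes showed little spread beside their differences. Rnf32 did not, at 8.47, 4.5 and 9.70 in Tregs and 13.26, 14.34 and 14.03 in CD8+ T cells, and its call (adjusted p = 0.0235) was lost without Treg replicate 1 or any one CD8+ array, with adjusted p from 0.0544 to 0.0716.

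**Figure D3:**
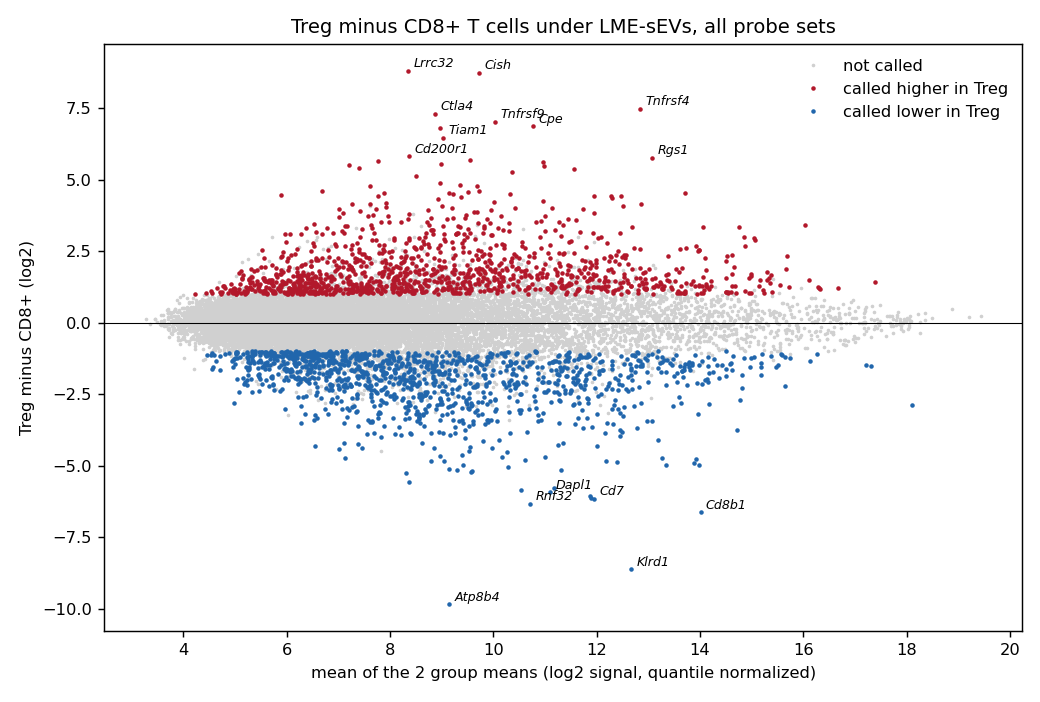
Difference of Tregs minus CD8+ T cells under LME-sEVs (y axis, log2) against the mean of both group means (x axis, log2 signal) for all 22206 probe sets, with called ones in red (1165 higher in Tregs) and blue (1220 lower) and the others in grey. Lrrc32 and Cish lie at the top, Atp8b4 and Klrd1 at the bottom.

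**Figure D4:**
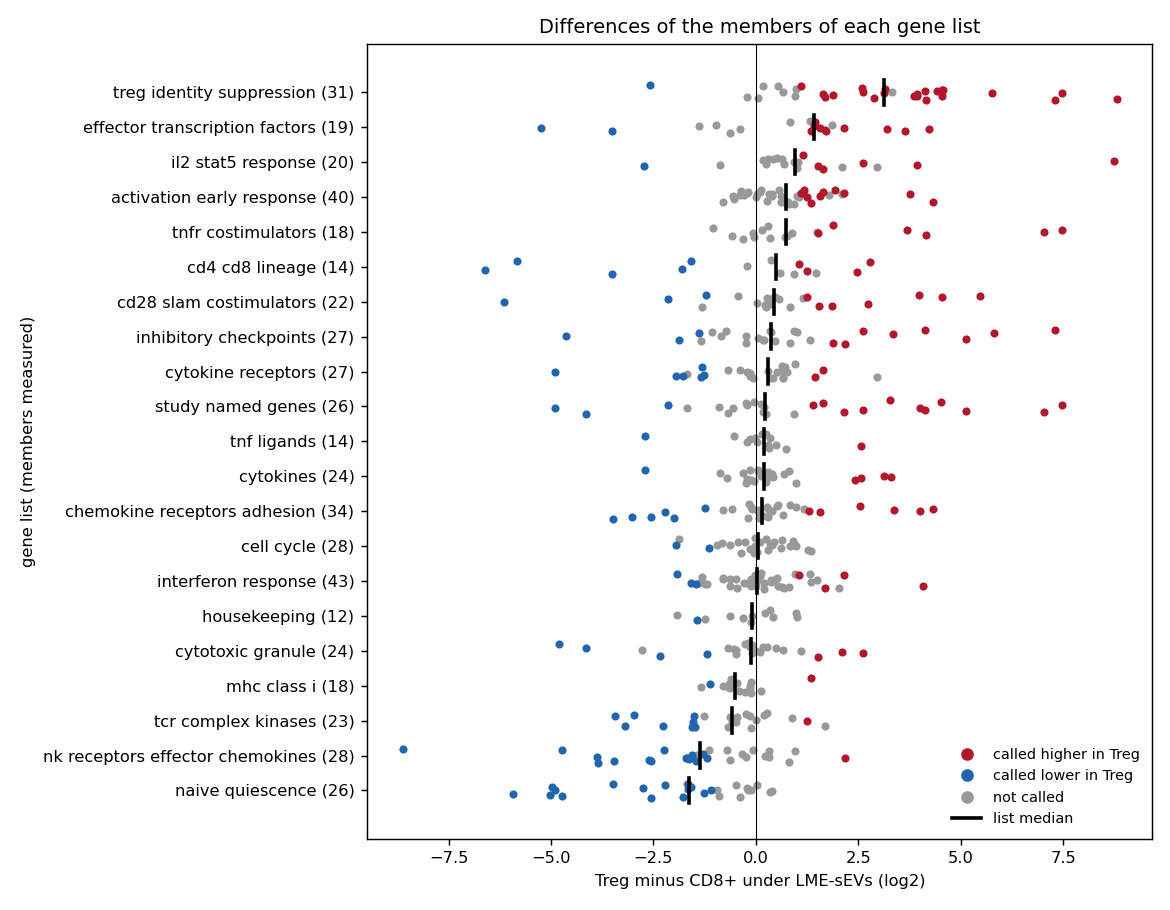
Difference of Tregs minus CD8+ T cells under LME-sEVs (x axis, log2) for each measured member of 21 gene lists (rows, members in brackets), coloured by call, with the list median as a black bar. Medians run from 3.14 for Treg identity genes to -1.62 for naive and quiescence genes.

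The study itself named 26 of the measured genes from its own comparisons, so their direction is not independent evidence. Those comparisons set LME-sEVs against HCME-sEVs within 1 kind of cell, and not Tregs against CD8+ T cells. Of the 26 genes 11 were higher and 3 lower in Tregs, beside 5.25% and 5.49% of all probe sets, and on the deposited values 9 and 6. They include Irak3, an inhibitor of Toll-like receptor signals, at 11.04, 10.29 and 9.13 in Tregs and 5.01, 4.84 and 7.05 in CD8+ T cells (at least 5.20-fold, adjusted p = 0.012). Itgb1, an integrin chain, was at 13.01, 13.32 and 13.08 against 10.24, 8.84 and 8.33 (4.0 ± 0.48, adjusted p = 0.0048).

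Whether the differences depended on the kind of vesicle was asked on the 12 Treg and CD8+ T-cell arrays, normalized together. Under HCME-sEVs 3088 probe sets were called between Tregs and CD8+ T cells (13.9%), and under LME-sEVs 2493 in the same fit. Of the 2385 calls on the 6 arrays, 1565 were also called in the same direction under HCME-sEVs. The difference between both differences passed for 0 probe sets (0%), and 1300 had an unadjusted p below 0.05. With all 18 arrays fitted together 2 probe sets passed, Tnfrsf9 (adjusted p = 0.0214) and a probe set without a gene name. The labels give 1 vesicle concentration while the methods set amounts by spleen content, so whether both vesicles were dosed equally is unknown here, and dose cannot be told apart from the kind of vesicle.

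Tnfrsf9 had the lowest unadjusted p of the genes described here. On the scale of the 12 arrays it was at 14.23, 13.06 and 13.28 in Tregs and 6.49, 6.71 and 6.44 in CD8+ T cells under LME-sEVs, and at 9.86, 9.81 and 8.14 in Tregs and 7.40, 6.51 and 6.03 in CD8+ T cells under HCME-sEVs. The contrast of vesicles had an unadjusted p of 6.62e-05 (limma, adjusted p = 0.407). The Treg arrays of both vesicles did not overlap, whereas all CD8+ arrays lay under the background of this scale, 7.84, so no size is given for the contrast here or for Pdcd1, Ctla4 and Cish, where the same held. Pdcd1 was at 11.42, 11.50 and 10.17 in Tregs and 6.04, 5.96 and 5.90 in CD8+ T cells under LME-sEVs, and at 8.64, 8.56 and 7.71 in Tregs and 6.0, 6.26 and 6.46 in CD8+ T cells under HCME-sEVs (contrast of vesicles, limma, unadjusted p = 9.46e-05, adjusted p = 0.407).

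Gzmb was called higher in Tregs under LME-sEVs and not under HCME-sEVs, and the test of that contrast did not pass. It was at 11.30, 11.02 and 11.34 in Tregs and 7.81, 8.12 and 9.94 in CD8+ T cells under LME-sEVs. Under HCME-sEVs it was at 8.41, 9.21 and 9.28 in Tregs and 8.81, 8.75 and 10.22 in CD8+ T cells, with overlapping groups and a difference of -0.29 ± 0.54 (adjusted p = 0.735). The differences differed by 2.89 ± 0.77 (limma, unadjusted p = 0.00322, adjusted p = 0.677). Ctla4 was at 12.48, 12.54 and 12.43 in Tregs under LME-sEVs and at 11.43, 11.02 and 8.24 in Tregs under HCME-sEVs (contrast of vesicles, limma adjusted p = 0.773). Cish was at 13.92, 14.19 and 14.04 in Tregs under LME-sEVs and at 13.97, 14.41 and 14.81 in Tregs under HCME-sEVs, with overlap (limma adjusted p = 0.959).

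**Figure D5:**
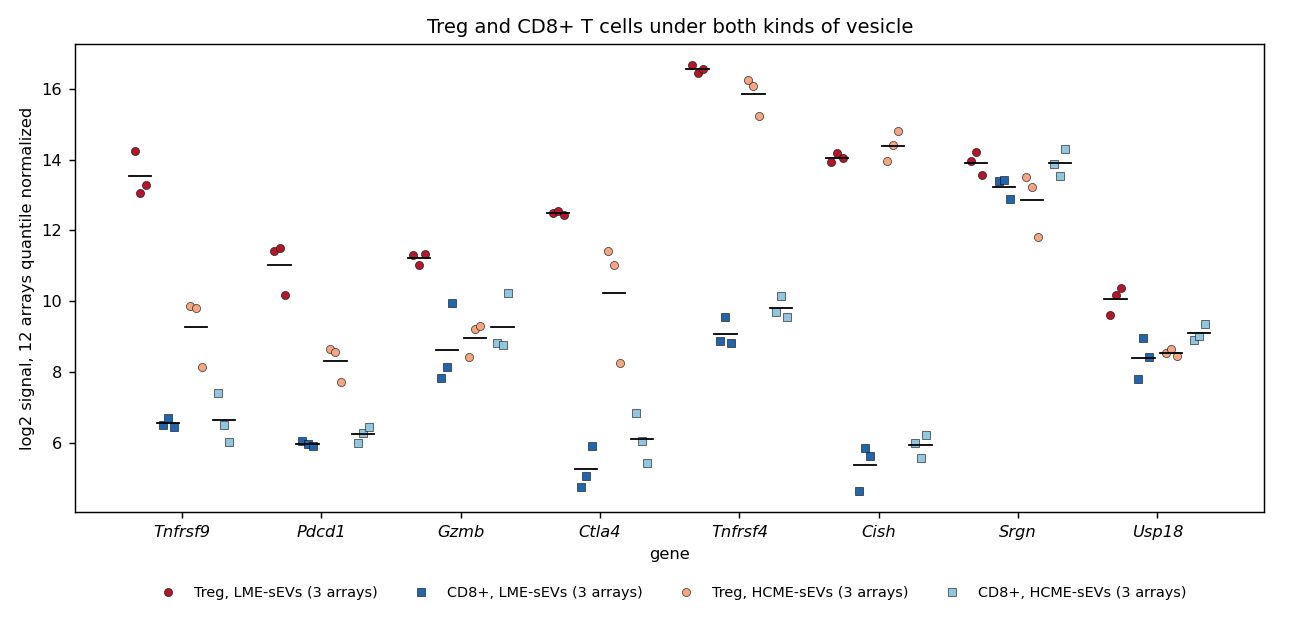
Log2 signal of 8 genes (y axis, 12 arrays quantile normalized together) in Tregs (circles) and CD8+ T cells (squares) under LME-sEVs (dark) and HCME-sEVs (light), 3 arrays each, with group means as bars. Treg signal of Tnfrsf9 and Pdcd1 is higher under LME-sEVs than under HCME-sEVs on every array, Gzmb parts Tregs from CD8+ T cells under LME-sEVs and not under HCME-sEVs, and Treg signal of Cish overlaps between vesicles.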

How the data were processed

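Sorted Tregs and CD8+ T cells of mouse spleens were measured on 3 arrays per subset and vesicle. Probe set signals on the log2 scale were taken as the authors deposited them, after their processing of the scans in the Transcriptome Analysis Console. The normalization and the genome build are not given in the sources used here. Medians of the deposited arrays were 6.64 to 6.73 for Tregs and 7.17 to 7.28 for CD8+ T cells under LME-sEVs, and upper deciles 10.82 to 11.02 and 11.66 to 11.84, so subsets may have been normalized separately and levels set across them carry this limit. The arrays correlated at 0.959 to 0.962 within Tregs, 0.962 to 0.969 within CD8+ T cells and 0.893 to 0.917 between them, and no arrays were identical. The number of arrays limits the precision. The labels and methods name different RNA labelling kits. No columns were left unmapped.

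Of 22206 probe sets 19572 had 1 symbol and 2634 had none, and the brightest stood for a gene with several. The 6 arrays were quantile normalized and fitted with limma 3.58.1 in R 4.3.3 (lmFit, eBayes), and the 12 arrays likewise for the contrast of vesicles, where an adjusted p below 0.05 was asked with no fold threshold. Thresholds were those of the study. Background was set at the 95th percentile over receptor probe sets, 7.93 as a group mean for Tregs and 7.74 for CD8+ T cells, and taken per array for lower limits, which are the brighter group's mean over the dimmer group's mean with each array raised to its background. Named genes were Tnfrsf9, Gzmb and Cd8b1, the 10 largest positive and 10 largest negative called differences with 1 symbol, groups apart and signal above background (predicted genes left out), all members of the costimulatory, activation, checkpoint, granule and Treg lists, up to 6 of each other list, genes the study named and other cells' markers. Genes in a list were counted by call and median with no set test. Lists share members, so their counts are not independent. Members and lists were chosen with earlier results of these data known. Fits were tried on simulated data with few changed probe sets and no difference in scale between groups. That check cannot speak to the scaling between the subsets. Alternatives were other scalings, filters, variance models, a replicate block, the methods' t-test, more arrays in the fit and leaving out each array.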

Additional observations from a re-analysis of the deposited data

Results flagged for a closer look

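Srgn and Usp18 were singled out because Tregs lay above CD8+ T cells on every array under LME-sEVs and below them on every array under HCME-sEVs. Srgn, which encodes the granule proteoglycan serglycin, was at 13.95, 14.21 and 13.55 in Tregs and 13.39, 13.42 and 12.89 in CD8+ T cells under LME-sEVs, and at 13.52, 13.21 and 11.82 in Tregs and 13.86, 13.53 and 14.30 in CD8+ T cells under HCME-sEVs (12 arrays normalized together). The differences differed by 1.72 ± 0.57 (SE, limma, unadjusted p = 0.0114, adjusted p = 0.805). Usp18, an interferon-induced protease that removes ISG15, was at 9.59, 10.18 and 10.38 in Tregs and 7.80, 8.95 and 8.42 in CD8+ T cells under LME-sEVs, and at 8.55, 8.64 and 8.45 in Tregs and 8.91, 9.02 and 9.35 in CD8+ T cells under HCME-sEVs. The differences differed by 2.21 ± 0.42 (limma, unadjusted p = 0.00025, adjusted p = 0.453). Both genes were picked on these same 12 arrays, so their unadjusted p-values are no test of the pattern. Neither gene passed over all probe sets.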

How the results depend on the processing

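The number of calls between Tregs and CD8+ T cells was 2385 (1165 higher in Tregs, 1220 lower). It was 4807 on the deposited values (503 higher, 4304 lower), 4251 with arrays centred above background (3278 higher, 973 lower), 2365 after cyclic loess (1081 and 1284) and 1021 with the methods' t-test, Benjamini-Hochberg adjusted (508 and 513). Leaving out 1 array gave 1541 to 2011 calls, 717 to 996 higher and 824 to 1015 lower, and the fewest came without CD8+ replicate 2 (1541) or 1 (1551). The cause was not tested. The contrast of vesicles gave 0 under all alternatives but 1, the fit of 18 arrays with 2. Same-numbered arrays deviated together slightly (correlations of 0.030, 0.046 and 0.037, each the highest for its number). The other pairs lay at -0.032 to -0.005. Whether the numbers pair samples is not known, and the main fit did not use them. With the replicate block 1854 probe sets were called, 874 higher and 980 lower.

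Of 126 called genes among those named, 0 changed direction with a call. Calls were lost for 17 on the deposited values, 4 after cyclic loess, 3 after centring, 15 with the replicate block and 17 to 25 without 1 array. Those lost on the deposited values were all higher in Tregs, among them Tnfrsf25, Tnfrsf1b, Lamp1, Pim1, Il4ra, Pdia3, Usp18 and Tlr7. Counts of list members without Treg replicate 2, tried after seeing the data, stayed within 1.5 times for the costimulatory, activation, checkpoint (higher), granule and Treg lists, while higher members numbered 2 in the CD4 and CD8 lineages, 3 in the IL2 set and 2 among interferon-induced genes, and lower members numbered 1 among checkpoint genes, 1 among effector factors and 3 among cytokine receptors. Smaller counts moved in other lists too. Signal over background limited Lag3, Havcr2, Cd160 and Prf1, which could not be compared.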

Other observations

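Of 43 measured interferon-induced genes 4 were higher in Tregs and 3 lower, with a median of 0.02, beside 5.25% higher and 5.49% lower of all probe sets, so the counts are no result about the family. The higher ones numbered 2 without Treg replicate 2 or CD8+ replicate 1 or 3, and leaving out 1 array gave 2 to 6. Gbp3, a guanylate-binding protein gene, was at 14.69, 14.48 and 14.50 in Tregs and 9.96, 11.28 and 10.17 in CD8+ T cells (4.08 ± 0.35, limma adjusted p = 0.00175), while Ifit3 was at 8.30, 7.92 and 7.72 against 9.39, 9.39 and 9.57 (-1.47 ± 0.20, limma adjusted p = 0.00726). On the deposited values 2 were higher and 12 lower, and after centring 10 were higher and 4 lower, so the balance of this list followed the scaling.

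Cytokine genes included Il4 at 8.59, 8.39 and 8.30 in Tregs and 4.92, 5.32 and 5.17 in CD8+ T cells, at least 1.57-fold higher in Tregs (limma adjusted p = 0.000429), and Csf1, at least 1.85-fold higher. Of 34 chemokine receptor and adhesion genes 6 were higher and 6 lower (11 and 5 after centring), and of 27 cytokine receptor genes 2 and 6 (0 and 8 on the deposited values), where leaving out 1 array gave 2 to 4 lower. Ccr4, a receptor for skin-homing chemokines, was at least 2.05-fold higher in Tregs, and Cxcr6 at least 4.72-fold lower. Of 28 cell cycle genes 2 were lower (6 on the deposited values), Ccne1 at 10.60, 10.59 and 10.65 in Tregs against 12.39, 12.38 and 12.89 in CD8+ T cells (-1.94 ± 0.20, limma adjusted p = 0.00295) and Birc5 by -1.15 ± 0.22, whose call was lost without Treg replicate 1 or 2 or any one CD8+ array. Of 18 genes of MHC class I and its loading 1 was higher and 1 lower in Tregs, and of 12 housekeeping genes 0 were higher and 1 (Gusb) was lower, with medians of -0.51 and -0.11. On the deposited values 0 of the MHC class I genes were higher and 10 lower with a median of -1.26, and of the housekeeping genes 0 and 4. After centring 2 and 0 of the MHC class I genes and 6 and 2 of the housekeeping genes were higher and lower. These balances followed the scaling. Over all probe sets 5.25% were higher and 5.49% lower. Beside these shares the counts of cell cycle, MHC class I and housekeeping genes are no result about those families. The Gusb call was lost without Treg replicate 2 or 3 or CD8+ replicate 3.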
